A study of Homo sapiens with 6 samples.

Results

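The genes described here are ATF4 and 9 other regulators and effectors of the integrated stress response: ATF5, DDIT3, TRIB3, CHAC1, ASNS, SESN2, PPP1R15A, CEBPB and NUPR1. They were picked by name as parts of the known pathway, with earlier results of these data known, and all 10 were measured among the 18417 genes tested. The study measured total RNA on 6 microarrays in Du145, an established human prostate carcinoma cell line. TSC2, a tumour suppressor that restrains the growth kinase mTORC1, was targeted by a short hairpin RNA delivered with a lentivirus. All 3 groups, with 2 arrays each, were cultured at 1% oxygen in a high-glucose medium and were harvested after 24 h of hypoxia. The groups are shTSC2-adapted cells, which the labels describe as adapted from the knockdown, shTSC2 cells, and control cells. No normoxic arrays are part of the design, so the response to low oxygen itself is not measured. The labels do not state what the adaptation consisted of or how control cells were treated beyond the hypoxic culture. Loss of TSC2 therefore cannot be told apart from the effects of infection or of the hairpin. Nothing says that the arrays of a group came from separate cultures, so the p-values measure only the spread between arrays, which may be technical.

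In the integrated stress response, kinases that sense amino acid shortage, misfolded protein, viral RNA or mitochondrial and haem stress phosphorylate the translation factor eIF2. General protein synthesis falls, while the mRNA of the transcription factor ATF4 is translated more, through upstream reading frames in its leader. ATF4, often together with C/EBP proteins, then switches on genes of amino acid supply, redox balance, feedback and cell death, and mTORC1 can also raise ATF4 and its amino acid targets. The arrays measured RNA, so neither the amount of ATF4 protein nor the phosphorylation of eIF2 is known here.

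ATF4 and its C/EBP partners bind a composite element, the CARE, whose core was searched as TGATGNAA or its reverse TTNCATCA on both strands. Promoter windows came from RefSeq (GRCh38.p14), from 250 bases before to 50 bases after each start, and 9 of the 10 genes were in the table. The core stood in a window of 2 of these 9 genes, CHAC1 and ASNS, and in 1217 of 27305 genes of the whole table (4.46%). The 250 upstream bases of both are shown because the element is the known route from ATF4 to its targets. The capitals mark the core, whose first base lies 209 bases before the start in CHAC1 and 68 bases before it in ASNS. The CHAC1 sequence is chr15:40953221-40953470, plus strand, and the ASNS sequence is chr7:97872409-97872658, minus strand.
CHAC1: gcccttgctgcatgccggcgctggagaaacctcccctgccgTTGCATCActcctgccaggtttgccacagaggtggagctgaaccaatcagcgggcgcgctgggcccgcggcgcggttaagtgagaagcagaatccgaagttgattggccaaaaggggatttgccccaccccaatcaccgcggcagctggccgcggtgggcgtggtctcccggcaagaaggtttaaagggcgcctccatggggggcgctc
ASNS: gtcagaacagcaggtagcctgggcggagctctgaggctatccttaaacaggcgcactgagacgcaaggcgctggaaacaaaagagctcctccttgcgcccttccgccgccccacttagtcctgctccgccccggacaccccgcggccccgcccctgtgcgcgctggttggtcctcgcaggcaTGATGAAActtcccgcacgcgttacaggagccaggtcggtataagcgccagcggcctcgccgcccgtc
A match is a description of these letters and shows neither binding nor a cause. Elements outside the window or with other letters were not searched. A gene without a match is therefore not shown to lack an element. Among the ATF4 targets of amino acid supply listed below, 7 of the 18 genes in the table (38.9%) held the core. So did 2 of 8 other bZIP factors (ATF3 and JDP2) and 2 of 7 paralogues (PPP1R15B and CEBPG). It also stood in 2 of 12 stress and cell death targets (FGF21 and HERPUD1) and in TSC2. Of these further genes, ATF3 rose in shTSC2 cells (2.015), and TSC2, which the hairpin itself targets, fell (-0.945). The others did not pass against control. The core stood in 0 of 15 eIF2 and eIF2B genes and 0 of 10 of the other unfolded protein response arms. Excerpts of 40 bases are shown for AARS1, an alanyl-tRNA synthetase (chr16:70289670-70289709, minus strand), and SLC1A4, a neutral amino acid transporter (chr2:64989376-64989415, plus strand), as examples chosen after their values were seen. Of the 7 amino acid supply genes with the core, SLC7A1, SLC1A4 and AARS1 fell in shTSC2 cells. SLC3A2 (0.43), SLC1A5 (-0.315), GARS1 (-0.155) and CARS1 (-0.175) did not pass against control. Over the whole list 8 of 23 measured genes fell (34.8%). SLC7A11, SARS1, SLC38A2, SLC7A5 and PSPH fell too but are not among the 7 with the core, and not every gene of the list is in the promoter table.
AARS1: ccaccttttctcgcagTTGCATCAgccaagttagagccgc
SLC1A4: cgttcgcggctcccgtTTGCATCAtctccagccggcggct

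All values below are log2 intensities after RMA, a normalization that makes the arrays alike in scale. A level is that of a probe set, and single genes are not compared with each other by level. Levels set against the median or lower quartile of all genes, or summed over markers, are a rough guide only. The median intensity of an array ranged from 58.08 to 63.12. TSC2 itself had 6.54 and 6.48 on the shTSC2-adapted arrays, 6.67 and 6.55 on the shTSC2 arrays, against 7.52 and 7.59 on the control arrays. Its RNA was at 51.9% of the control level in shTSC2 cells (log2 difference -0.945, limma adjusted p = 0.00102). In shTSC2-adapted cells it was at 48.5% of the control level (-1.045, adjusted p = 0.0241). With any 1 adapted or control array left out this difference stayed between -1.08 and -1.01 but did not pass (adjusted p from 0.0973 to 0.386). In every such fit the group left with 1 array is assumed to vary like the other groups, and less spread is measured, so a call can end although the difference stays. Of the Du145 epithelial markers, KRT8 and KRT18 lay at 11.22 or above on every array. KRT19 (-1.38, limma adjusted p = 0.00664) and EPCAM (-1.285, 0.0271) were lower in shTSC2 than in control cells. KRT19 (1.55, 0.00772), EPCAM (1.645, 0.0173) and CDH1 (1.54, 0.00756) were higher in shTSC2-adapted than in shTSC2 cells. CDH1 had not fallen in shTSC2 against control cells (-0.14, 0.722). Its difference between shTSC2-adapted and control cells was 1.40 and did not pass (0.068). KRT8, KRT18 and ITGA6 did not pass in any comparison. The 6 fibroblast markers summed to an intensity of 291.6 to 303.5 on the shTSC2-adapted arrays, 284.0 to 289.2 on the shTSC2 arrays and 259.6 to 264.9 on the control arrays. Limma called 0 of the 6 in any comparison, with at most 2 at an unadjusted p under 0.05. The 5 measured leukocyte markers summed to 142.9 to 146.9 on the shTSC2-adapted, 151.3 to 164.6 on the shTSC2 and 141.2 to 145.1 on the control arrays, and 0 were called or had an unadjusted p under 0.05. Of 3 markers of embryonic kidney cells, the usual source of lentivirus, NEFM (0.99, adjusted p = 0.013) and PAX2 (0.485, 0.0121) rose in shTSC2 cells. LIN28B, which those cells express strongly, lay between 3.31 and 3.61 on all arrays, below the lower quartile of all genes (5.023). The 3 summed to 130.1 to 177.5 on the shTSC2-adapted, 158.1 to 175.2 on the shTSC2 and 98.72 to 99.14 on the control arrays. The part of the epithelial and kidney markers in the results below was not tested. The summed epithelial markers were 6763 to 6863 on the shTSC2-adapted, 6200 to 6539 on the shTSC2 and 5780 to 6095 on the control arrays. These sums are mostly KRT8 and KRT18, so they do not show the falls of KRT19 and EPCAM in shTSC2 cells. In bulk RNA, fewer cells of a type and less RNA per cell cannot be told apart.

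On the brighter of its probe sets, ATF4 RNA was low in shTSC2 cells and nearer to the control level in shTSC2-adapted cells. The probe set with the higher signal had 10.41 and 10.27 on the shTSC2-adapted arrays, 9.29 and 9.39 on the shTSC2 arrays, against 10.61 and 10.58 on the control arrays. Both shTSC2 arrays lay well below all the others, and both adapted arrays lay just below both control arrays. ATF4 fell in shTSC2 cells to 41.9% of the control level, a log2 difference of -1.255 (SE 0.099, 95% interval -1.487 to -1.023, limma adjusted p = 0.000524). In shTSC2-adapted cells it was 2-fold the shTSC2 level, a difference of 1.00 (SE 0.099, 0.768 to 1.232, adjusted p = 0.00249). The difference between shTSC2-adapted and control cells was -0.255 (-0.487 to -0.023) and did not pass after adjustment (0.348). The comparisons share arrays: both comparisons with control use the control arrays, and both with shTSC2 use the shTSC2 arrays.

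No difference passed on the other ATF4 probe set, which the annotation assigns to a different RefSeq transcript of the gene. That set had 8.33 and 8.04 on the shTSC2-adapted arrays, 7.68 and 7.88 on the shTSC2 arrays, against 7.87 and 8.18 on the control arrays. The highest shTSC2 value lay above the lowest control value, so these groups overlapped. With all 19460 named probe sets tested, its difference was -0.245 between shTSC2 and control cells (-0.601 to 0.111, adjusted p = 0.312) and 0.405 between shTSC2-adapted and shTSC2 cells (0.049 to 0.761, adjusted p = 0.139). Its difference between shTSC2-adapted and control cells was 0.16 (adjusted p = 0.763), opposite in sign to that of the brighter set. A test of the gap between the probe sets, added after these values were seen, gave -1.01 for shTSC2 against control cells (SE 0.146, unadjusted p = 0.0038). After adjustment over the 769 genes with more than 1 probe set this did not pass (0.147), and limma called 0 of them in this comparison, with 124 at an unadjusted p under 0.05. The gene table holds 4 pseudogenes named after ATF4, and whether a probe set also reads such a copy is not known from the files.

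**Figure D1:**
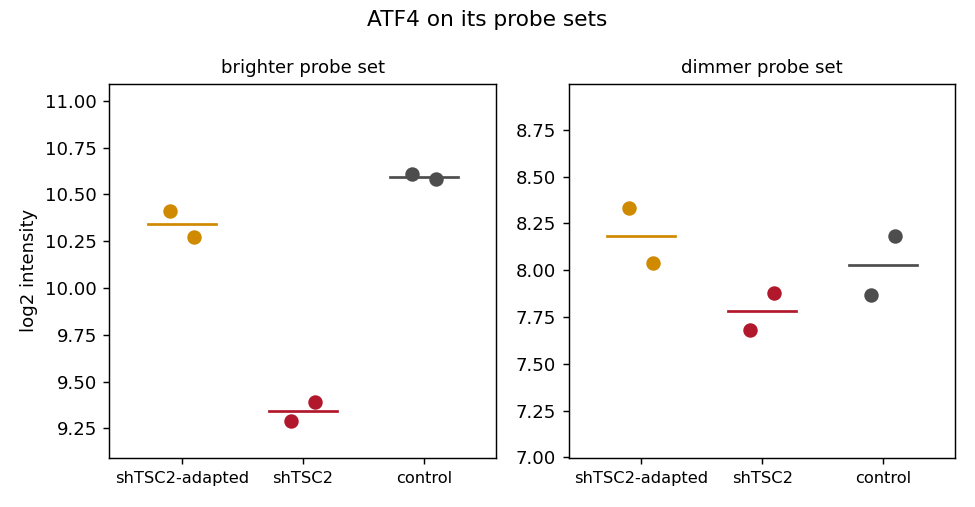
Log2 intensity of both ATF4 probe sets on each of the 6 arrays, with groups along the horizontal axis 1 point per array and a line at each group's mean. On the brighter set the shTSC2 arrays (9.29 and 9.39) lie apart from the shTSC2-adapted and control arrays, while on the dimmer set the shTSC2 and control arrays overlap.

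ATF5 and CEBPB, which are also transcription factors of the response, had no difference that passed. ATF5, a bZIP factor whose mRNA is translated under stress in the same manner as that of ATF4, had 6.15 and 6.15 on the shTSC2-adapted arrays, 6.40 and 6.39 on the shTSC2 arrays, against 6.19 and 6.16 on the control arrays. Both shTSC2 arrays were the highest, but the difference of 0.22 from control did not pass (limma adjusted p = 0.129), nor did the difference of -0.245 between shTSC2-adapted and shTSC2 cells (0.125). CEBPB, which can pair with ATF4 on the CARE, had 7.51 and 7.51 on the shTSC2-adapted arrays, 7.33 and 7.37 on the shTSC2 arrays, against 7.60 and 7.49 on the control arrays. Its shTSC2 arrays were the lowest of the 6, with a difference of -0.195 from control (adjusted p = 0.193). An antisense gene is named after CEBPB in the gene table, and whether the probe set separates the strands is not stated in the sources used here.

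DDIT3, also called CHOP, is the bZIP factor that links prolonged stress to cell death. It had 9.41 and 8.77 on the shTSC2-adapted arrays, 8.98 and 9.12 on the shTSC2 arrays, against 8.42 and 8.39 on the control arrays. All 4 shTSC2 and shTSC2-adapted arrays lay above both control arrays, and the adapted arrays lay on either side of the shTSC2 arrays. The difference between shTSC2 and control cells was 0.645 (SE 0.192, 0.196 to 1.094) and just missed the threshold (limma adjusted p = 0.0524). It passed in 5 of 12 distinct alternative fits, among them that of only the 4 shTSC2 and control arrays (0.00967) and that with median centring (0.0365). The difference of 0.685 between shTSC2-adapted and control cells (0.236 to 1.134) did not pass (0.19), and that between shTSC2-adapted and shTSC2 cells was 0.04 (-0.409 to 0.489).

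CHAC1, a target of ATF4 that degrades the antioxidant glutathione, was low in shTSC2 cells and higher in shTSC2-adapted than in shTSC2 cells. It had 8.65 and 8.21 on the shTSC2-adapted arrays, 6.63 and 6.76 on the shTSC2 arrays, against 8.10 and 7.68 on the control arrays. The shTSC2 arrays lay well below all others, and both adapted arrays lay above both control arrays. CHAC1 fell in shTSC2 cells to 43.7% of the control level, a difference of -1.195 (SE 0.184, -1.626 to -0.764, adjusted p = 0.00434). In shTSC2-adapted cells it was 3.33-fold the shTSC2 level, a difference of 1.735 (SE 0.184, 1.304 to 2.166, adjusted p = 0.00274). Against control the adapted cells differed by 0.54 (0.109 to 0.971), which did not pass (0.285). CHAC1 is one of the genes whose promoter is printed above.

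TRIB3, a pseudokinase induced by ATF4 that holds ATF4 back, had 8.27 and 7.97 on the shTSC2-adapted arrays, 7.09 and 7.66 on the shTSC2 arrays, against 7.89 and 7.76 on the control arrays. The shTSC2 arrays were the lowest, although they lay far apart, and the adapted arrays were the highest. TRIB3 was 1.68-fold higher in shTSC2-adapted than in shTSC2 cells, a difference of 0.745 (SE 0.192, 0.295 to 1.195, limma adjusted p = 0.0457). This call ended in 7 of 12 distinct alternative fits, with a difference of 0.46 (0.0964) without the first shTSC2 array and of 0.595 (0.227) without the first adapted array. The difference of -0.45 between shTSC2 and control cells did not pass (0.15), except without the second shTSC2 array (-0.735, 0.0171).

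PPP1R15A, or GADD34, the stress-induced subunit that directs a phosphatase to eIF2 and so ends the response, ran the other way. It had 8.16 and 7.78 on the shTSC2-adapted arrays, 8.44 and 8.21 on the shTSC2 arrays, against 7.88 and 7.71 on the control arrays. Both shTSC2 arrays were higher than every other array. PPP1R15A rose in shTSC2 cells to 1.44-fold the control level, a difference of 0.53 (SE 0.152, 0.175 to 0.885, adjusted p = 0.0465). It did not pass without the first control array (0.615, 0.134), the second control array (0.445, 0.27) or the first shTSC2 array (0.415, 0.145), or with the gene length trend removed (0.429, 0.0942). The shTSC2-adapted cells differed by -0.355 from shTSC2 cells (0.185) and by 0.175 from control cells (0.733), and neither passed.

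ASNS, which makes asparagine and is a standard readout of ATF4, had 10.53 and 10.42 on the shTSC2-adapted arrays, 9.99 and 10.23 on the shTSC2 arrays, against 10.30 and 10.17 on the control arrays. The shTSC2 and control arrays overlapped, and the adapted arrays were the highest. Its difference was -0.125 between shTSC2 and control cells (adjusted p = 0.506). Between shTSC2-adapted and shTSC2 cells it was 0.365 (0.092 to 0.638) and did not pass (0.0892), except without the second shTSC2 array (0.485, 0.0399). The gene table names 5 pseudogenes after ASNS.

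SESN2, a stress-induced leucine sensor that restrains mTORC1, had 7.48 and 7.62 on the shTSC2-adapted arrays, 7.42 and 7.28 on the shTSC2 arrays, against 7.36 and 7.02 on the control arrays. The adapted arrays were the highest and the other groups overlapped, and no difference passed (0.36 between shTSC2-adapted and control cells, adjusted p = 0.328). NUPR1, a small stress-induced chromatin protein, had 5.74 and 5.25 on the shTSC2-adapted arrays, 5.75 and 5.47 on the shTSC2 arrays, against 5.81 and 6.18 on the control arrays. The control arrays were the highest, and no difference passed (-0.50 between shTSC2-adapted and control cells, adjusted p = 0.35). NUPR1 and ATF5 had mean levels below the median of all genes (6.492), where small changes are measured less well.

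**Figure D2:**
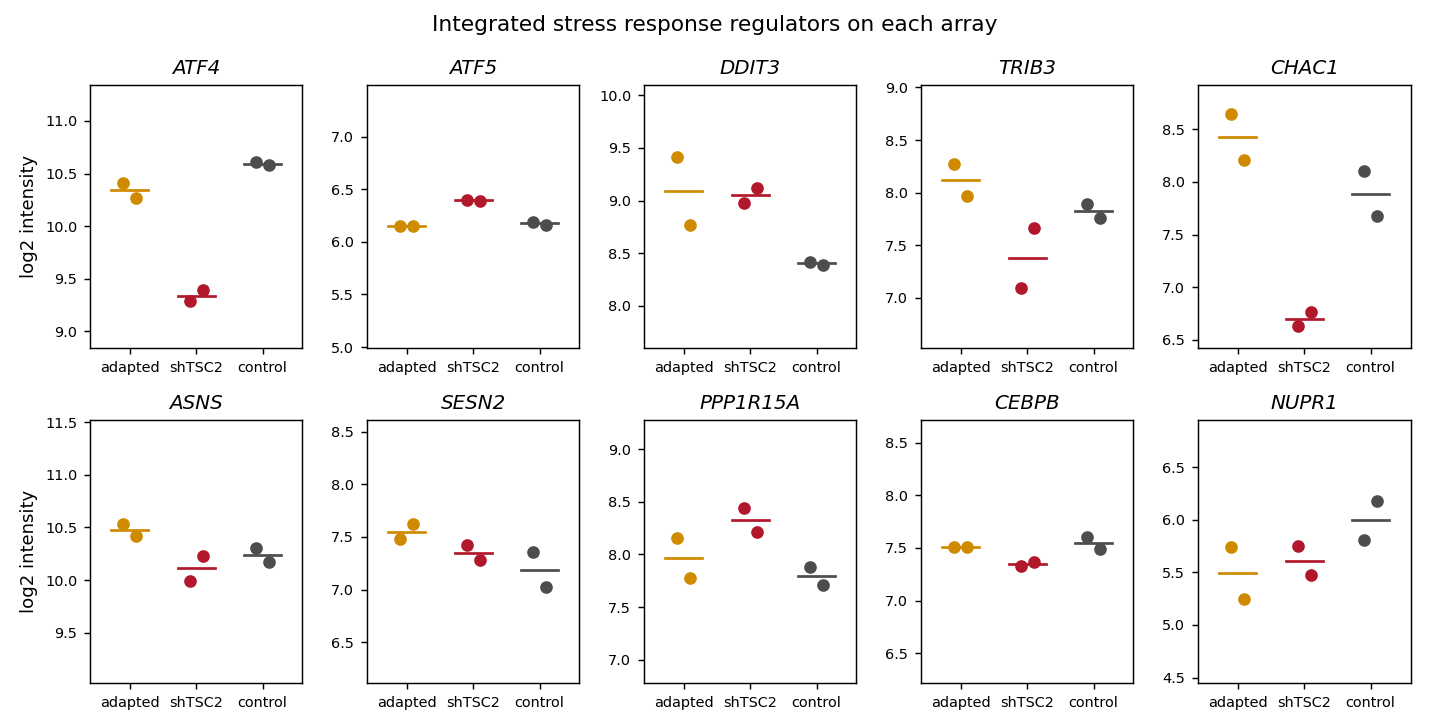
Log2 intensity of each of the 10 genes on every array, 1 panel per gene, with groups along the horizontal axis, 1 point per array and a line at each group's mean. ATF4 (brighter probe set), CHAC1, TRIB3 and CEBPB show both shTSC2 arrays below all others, and PPP1R15A and ATF5 show them above all others. The differences of TRIB3, CEBPB and ATF5 between shTSC2 and control cells did not pass. For DDIT3 the shTSC2 and shTSC2-adapted arrays all lie above the control arrays.

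The 10 genes were counted with ATF4 on its brighter probe set, since no difference passed on the other. In shTSC2 against control cells 2 fell (ATF4 and CHAC1), 1 rose (PPP1R15A) and 7 did not pass. Over all genes in the same comparison 20.8% were called, 6.87% as higher and 13.9% as lower, so the count is near the background. The median log2 difference was -0.16 over the 10 genes and 0.025 over all genes. In shTSC2-adapted against shTSC2 cells 3 rose (ATF4, CHAC1 and TRIB3), 0 fell and 7 did not pass. There 12.5% of all genes were called, 9.25% as higher and 3.24% as lower, and the medians were 0.18 over the 10 genes and -0.025 over all genes. In shTSC2-adapted against control cells limma called 0 of the 10, with 5 at an unadjusted p under 0.05 (ATF4, DDIT3, CHAC1, SESN2 and NUPR1). Of all 18417 genes, 2317 had an unadjusted p under 0.05 there, and limma called 0.261%, 0.0543% as higher and 0.206% as lower. The medians there were 0.207 over the 10 genes and -0.005 over all genes. The split of calls over all genes moved with the scaling: in shTSC2 against control cells 33.0% of calls were higher, but 47.3% with quantile normalization and 44.4% with median centring. For shTSC2-adapted against shTSC2 cells 74.0% were higher, but 58.8% and 64.2% under these alternatives.

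**Figure D3:**
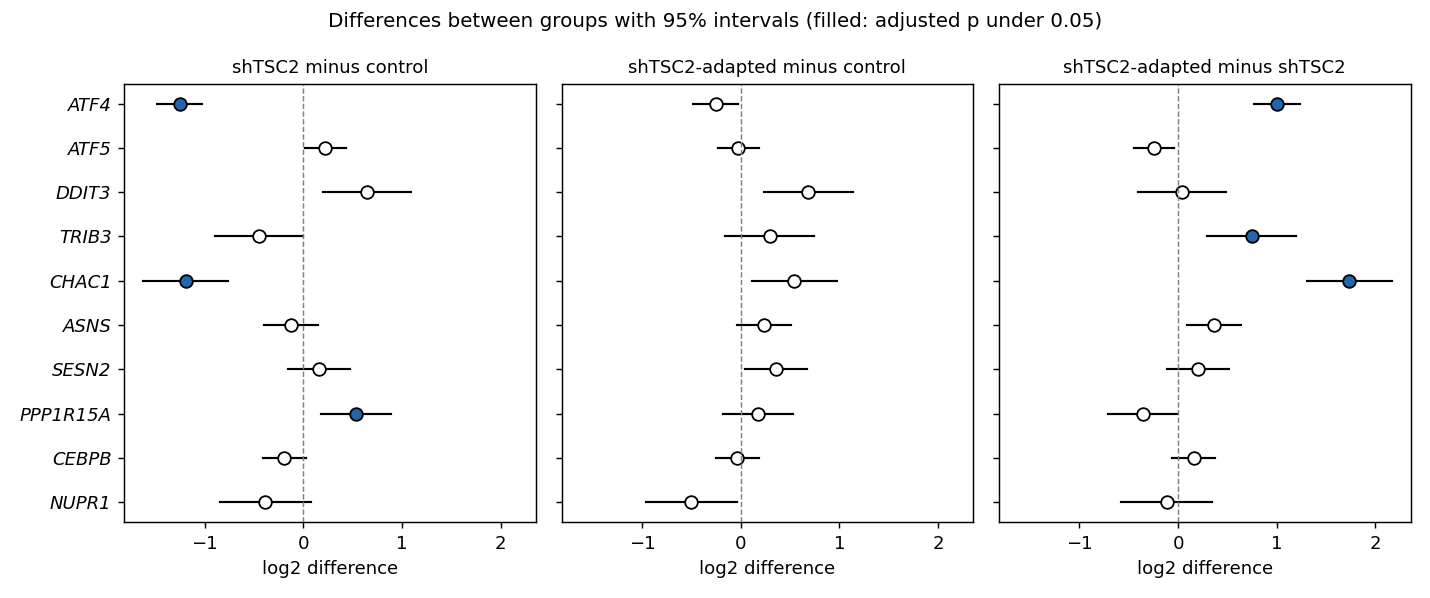
Log2 difference of each of the 10 genes with its 95% interval from limma, for each of the 3 comparisons, with filled points for adjusted p-values under 0.05. ATF4 is shown on its brighter probe set. ATF4 and CHAC1 lie below 0 in shTSC2 against control cells (-1.255 and -1.195) and above 0 in shTSC2-adapted against shTSC2 cells (1.00 and 1.735).

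The arrays of a group differed from each other for these genes in every group. The first array was higher than the second for 7 of the 10 genes in the shTSC2-adapted group, for 4 in the shTSC2 group and for 9 in the control group. The widest gap was 0.64 (DDIT3) in the shTSC2-adapted group, 0.57 (TRIB3) in the shTSC2 group and 0.42 (CHAC1) in the control group. The median gap was 0.22, 0.14 and 0.13 in the same order of groups.

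The genes were also set against gene length, since long genes fell more than short ones in shTSC2 cells. Over 16902 protein-coding genes (a description, since genes are not replicates), the difference between shTSC2 and control cells had a Spearman rho of -0.33 with gene span, and that between shTSC2-adapted and shTSC2 cells had one of 0.33. Of the 10 genes, 9 were shorter than the median span of 27.3 kb, and ATF4 spans 2.128 kb. With this trend removed, ATF4 differed by -1.361 between shTSC2 and control cells. The genes whose 6 centred values lay closest to those of the brighter ATF4 probe set were STX8, USP40, NUDT12, GAS2L3 and SH3D19. Their root mean square differences were 0.047, 0.049, 0.059, 0.06 and 0.07, and they span 325.35, 91.257, 13.935, 54.605 and 205.325 kb. All but NUDT12 are longer than the median span. Among the other 9 genes the closest were TRIB3 (0.366) and CHAC1 (0.388), and the farthest were PPP1R15A (0.771) and DDIT3 (0.789).

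The wider pathway was described with 6 lists of 87 genes, of which 86 were measured. In shTSC2 against control cells 19 of the 86 rose, 14 fell and 53 did not pass, and in shTSC2-adapted against shTSC2 cells 12 rose, 9 fell and 65 did not pass. These are 38.4% called against 20.8% of all genes in the first comparison, and 24.4% against 12.5% in the second, for lists chosen with earlier results known. In shTSC2-adapted against control cells limma called 0 of the 86, with 15 at an unadjusted p under 0.05, against 2317 of all 18417 genes. In shTSC2 against control cells 16 were called without the first control array and 15 without the second, and in shTSC2-adapted against shTSC2 cells 10 without the first adapted array.

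ATF4 targets that supply amino acids were the list with the most falls. Of 23 measured, 8 fell, 3 rose and 12 did not pass in shTSC2 against control cells, with a median of -0.285 (34.8% lower and 13.0% higher, against 13.9% and 6.87% of all genes). Between shTSC2-adapted and shTSC2 cells 7 rose, 0 fell and 16 did not pass, with a median of 0.28 (30.4% higher, against 9.25% of all genes). Both comparisons use the same shTSC2 arrays with opposite sign, so they are not independent. In shTSC2-adapted against control cells 0 of the 23 were called (0.261% of all genes), with a median of 0.115. SLC7A11, the cystine importer of the system xc- transporter, had 9.18 and 8.53 on the shTSC2-adapted arrays, 6.82 and 7.55 on the shTSC2 arrays, against 9.56 and 9.41 on the control arrays. It fell in shTSC2 cells (-2.30, adjusted p = 0.00165) and rose in shTSC2-adapted against shTSC2 cells (1.67, 0.0097, but 1.345 and 0.059 without the first adapted array). SARS1, the seryl-tRNA synthetase, had 10.76 and 10.53 on the shTSC2-adapted arrays, 9.03 and 9.44 on the shTSC2 arrays, against 10.60 and 10.55 on the control arrays. It differed by -1.34 between shTSC2 and control cells (0.00144) and by 1.41 between shTSC2-adapted and shTSC2 cells (0.00284). On both genes the shTSC2 arrays lay below all others. The other falls, named here because they complete the count, were those of the transporters SLC38A2 (-0.895), SLC1A4 (-0.69), SLC7A1 (-0.635) and SLC7A5 (-0.625), of AARS1 (-0.83) and of PSPH (-0.725), the last enzyme of serine synthesis. Those that rose were PYCR1 (0.65, adjusted p = 0.00854), an enzyme of proline synthesis, SHMT2 (0.37, 0.0248), the mitochondrial serine hydroxymethyltransferase, and WARS1 (0.355), the tryptophanyl-tRNA synthetase. PYCR1 did not pass without the second control array (0.56, 0.0948), nor SHMT2 without the first (0.38, 0.145) or the second (0.36, 0.171) or with the gene length trend removed (0.273, 0.0713).

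Among genes of eIF2, eIF2B and the control of eIF2 phosphorylation, 29.4% were called in shTSC2 against control cells, against 20.8% of all genes. In shTSC2-adapted against shTSC2 cells 17.6% were called, against 12.5%. Of 17, 2 rose, 3 fell and 12 did not pass in shTSC2 against control cells (median 0.07), and 3 rose, 0 fell and 14 did not pass in shTSC2-adapted against shTSC2 cells (median 0.095). As shares these are 11.8% higher and 17.6% lower, against 6.87% and 13.9% of all genes, and 17.6% higher, against 9.25%. None of the kinases EIF2AK1 (-0.31, limma adjusted p = 0.0929), EIF2AK2 (-0.18), EIF2AK3 (0.21, 0.15) and EIF2AK4 (-0.39, 0.125) passed in shTSC2 against control cells. OMA1, the mitochondrial protease that starts the signal from mitochondria to EIF2AK1, had 7.54 and 7.44 on the shTSC2-adapted arrays, 6.08 and 6.63 on the shTSC2 arrays, against 7.56 and 7.66 on the control arrays. It fell in shTSC2 cells (-1.255, 0.00278), as did IMPACT (-0.915, 0.00403), a restraint on EIF2AK4, and EIF2S2 (-0.435, 0.0353), the beta subunit of eIF2. In shTSC2-adapted against shTSC2 cells OMA1 (1.135, 0.00764), IMPACT (0.675, 0.0218) and EIF2S2 (0.575, 0.02) were higher. OMA1 did not pass without the first adapted array (1.085, 0.0573). IMPACT did not pass in 4 of 12 distinct fits, with adjusted p-values of 0.054 under quantile normalization, 0.0576 on only the 4 arrays, and 0.121 and 0.0662 without the first and the second adapted array. EIF2B2, a subunit of the exchange factor eIF2B (0.77, 0.00279), and EIF2S1, the subunit of eIF2 that is phosphorylated (0.64, 0.00524), rose in shTSC2 cells. EIF2S1 did not pass without the first (0.615, 0.0597) or the second control array (0.665, 0.0543), though its difference was much the same.

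Among other bZIP factors, FOS, ATF3, JUNB and JUN rose in shTSC2 cells. Of the 10 other bZIP factors, 4 rose, 0 fell and 6 did not pass in shTSC2 against control cells (median 0.143), and 0 rose, 2 fell and 8 did not pass in shTSC2-adapted against shTSC2 cells (median -0.092). As shares these are 40.0% higher, against 6.87% of all genes, and 20.0% lower, against 3.24%. ATF3, a stress-induced factor downstream of ATF4, had 7.38 and 6.42 on the shTSC2-adapted arrays, 7.92 and 7.70 on the shTSC2 arrays, against 5.82 and 5.77 on the control arrays. It rose in shTSC2 cells (2.015, adjusted p = 0.00258), and the adapted arrays lay between the other groups. FOS, an immediate early factor, had 7.04 and 6.24 on the shTSC2-adapted arrays, 9.35 and 7.93 on the shTSC2 arrays, against 6.26 and 6.39 on the control arrays. It differed by 2.315 between shTSC2 and control cells (0.00948) and by -2.0 between shTSC2-adapted and shTSC2 cells (0.0259). FOS did not pass between shTSC2 and control cells without the first (2.25, 0.0761) or the second control array (2.38, 0.071). Between shTSC2-adapted and shTSC2 cells it did not pass on only the 4 arrays (-2.0, 0.0676) or without the first (-2.4, 0.0608) or the second adapted array (-1.6, 0.134). JUN (0.96, 0.0134) and JUNB (1.005, 0.0226), which pair with FOS, also rose in shTSC2 cells. These calls against control were not checked in the alternative fits. JUNB fell in shTSC2-adapted against shTSC2 cells (-0.945, 0.0409), with no call in 5 of 12 distinct fits, such as without the first shTSC2 array (-0.555, 0.0572).

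Of the 9 paralogues, 3 rose, 0 fell and 6 did not pass in shTSC2 against control cells (median 0.155), and 0 rose, 2 fell and 7 did not pass in shTSC2-adapted against shTSC2 cells (median -0.075). As shares these are 33.3% higher, against 6.87% of all genes, and 22.2% lower, against 3.24%. TRIB1, the pseudokinase related to TRIB3, had 6.35 and 6.48 on the shTSC2-adapted arrays, 7.49 and 7.5 on the shTSC2 arrays, against 6.30 and 6.40 on the control arrays. Both shTSC2 arrays lay well above all others, while those of TRIB3 were the lowest. TRIB1 differed by 1.145 between shTSC2 and control cells (adjusted p = 0.000615) and by -1.08 between shTSC2-adapted and shTSC2 cells (0.00187). CHAC2, a relative of CHAC1 that degrades glutathione more slowly, rose in shTSC2 cells (0.69, limma adjusted p = 0.016), in which CHAC1 fell. It did not pass without the second control array (0.505) or the first shTSC2 array (0.605). CHAC2 differed by a similar 0.66 between shTSC2-adapted and control cells, which did not pass (0.127), and by -0.03 between shTSC2-adapted and shTSC2 cells. Its arrays lay between 5.18 and 6.14, below the median of all genes (6.492). CEBPA, a relative of CEBPB, rose in shTSC2 cells (0.375, 0.0233), a call not checked in the alternative fits. It fell in shTSC2-adapted against shTSC2 cells (-0.40, 0.0278), with no call in 6 of 12 distinct fits, such as with the gene length trend removed (-0.304, 0.0738).

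Targets of ATF4 and CHOP in stress and cell death were split. Of 17, 4 rose, 2 fell and 11 did not pass in shTSC2 against control cells (median 0.07), and 2 rose, 2 fell and 13 did not pass in shTSC2-adapted against shTSC2 cells (median -0.11). As shares these are 23.5% higher and 11.8% lower, against 6.87% and 13.9% of all genes, and 11.8% each way, against 9.25% higher and 3.24% lower. DDIT4, or REDD1, an inhibitor of mTORC1 that acts through the TSC complex, had 9.88 and 9.25 on the shTSC2-adapted arrays, 7.88 and 7.68 on the shTSC2 arrays, against 9.0 and 9.01 on the control arrays. It fell in shTSC2 cells (-1.225, adjusted p = 0.00478, but -1.22 and 0.0522 without the second control array) and rose in shTSC2-adapted against shTSC2 cells (1.785, 0.00288). VLDLR, a lipoprotein receptor, differed by -1.23 (0.00111) and 0.89 (0.00657) in the same comparisons. SQSTM1, the autophagy receptor p62, had differences of 0.715 (0.00201) and -0.52 (0.0117), and BCL2L11, the cell death protein BIM, of 0.63 (0.0234) and -0.89 (0.0107). Without the first adapted array neither SQSTM1 (-0.505, 0.0645) nor BCL2L11 (-0.835, 0.0733) passed against shTSC2 cells. Against control cells BCL2L11 did not pass without the first control array (0.405, 0.136) or without the first (0.635, 0.0561) or the second shTSC2 array (0.625, 0.06).

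The arms of the unfolded protein response that do not run through eIF2 gave 3 genes that rose, 1 that fell and 6 that did not pass among 10 in shTSC2 against control cells (median 0.11). Between shTSC2-adapted and shTSC2 cells 0 rose, 3 fell and 7 did not pass (median -0.14). As shares these are 30.0% higher and 10.0% lower, against 6.87% and 13.9% of all genes, and 30.0% lower, against 3.24%. DNAJB9, a chaperone partner in the endoplasmic reticulum, had 7.05 and 6.67 on the shTSC2-adapted arrays, 7.91 and 7.74 on the shTSC2 arrays, against 6.52 and 6.39 on the control arrays. It differed by 1.37 between shTSC2 and control cells (adjusted p = 0.00111) and by -0.965 between shTSC2-adapted and shTSC2 cells (0.00719). HYOU1, another chaperone of that compartment, had differences of 0.96 (0.00303) and -0.75 (0.0136), the second with no call without the first adapted array (-0.68, 0.0863). The gene that fell was ATF6, the membrane-bound factor of 1 of these arms (-0.87, 0.00312).

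**Figure D4:**
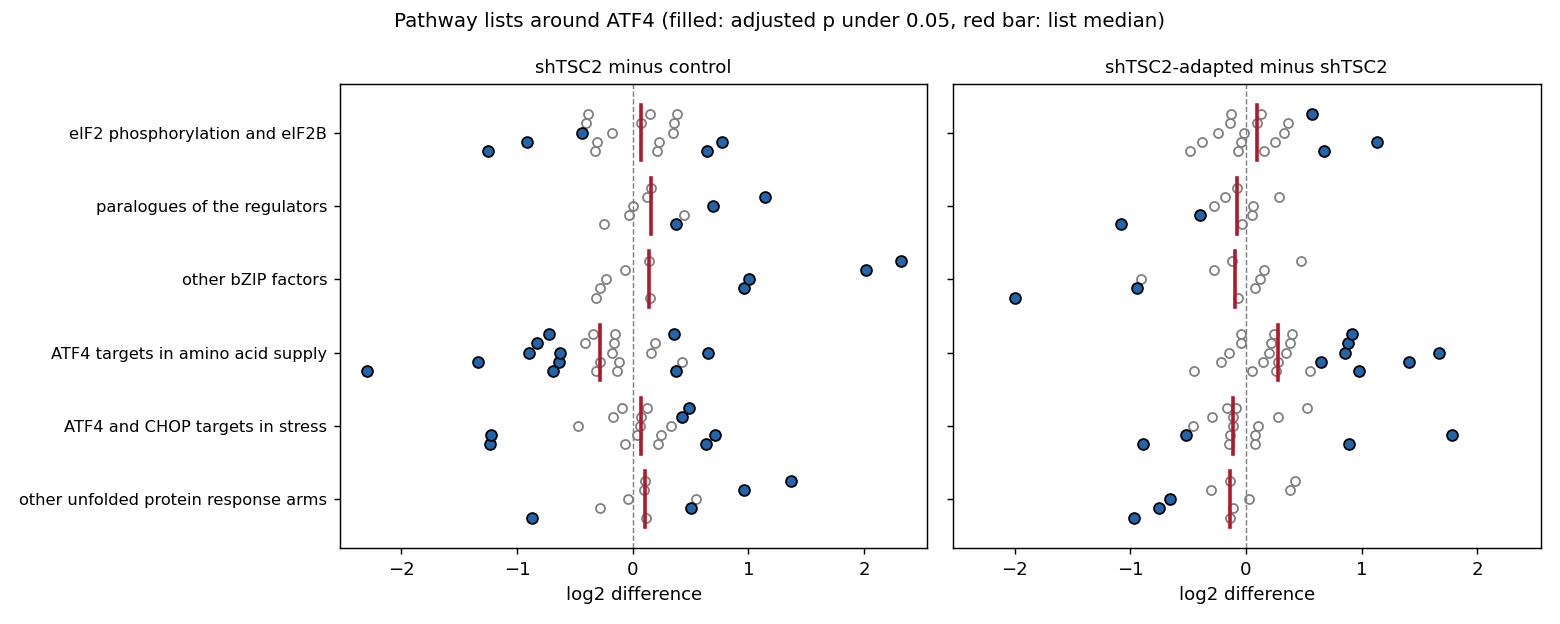
Log2 differences of the genes of the 6 pathway lists, 1 point per gene, for shTSC2 against control and shTSC2-adapted against shTSC2 cells, filled where the gene passed limma, with each list's median as a bar. The amino acid supply list has a median of -0.285 in shTSC2 against control cells and 0.28 in shTSC2-adapted against shTSC2 cells. Both use the same shTSC2 arrays with opposite sign.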

How the data were processed

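Total RNA, extracted with Trizol and labelled with biotin, was hybridised to 6 whole-transcript arrays, per the labels' protocols. The deposited table holds 1 linear intensity for each probe set and array, normalized by the authors with RMA, per the submitters' processing notes. The sources used here do not give the RMA version, probe definition or genome build. RMA equalises the arrays, so a change shared by most genes is partly removed. Log2 of the deposited intensities was taken. Arrays have no read depth, and their number limits the precision.

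Of 33297 probe sets, 19460 had 1 gene symbol, 1754 several and 12083 are unnamed here. The probe set with the highest mean was kept per gene, giving 18417 genes. Identifiers of 19429 probe sets matched the GRCh38.p14 table. Limma 3.58.1 (R 4.3.3) fitted a linear model with 3 groups to the 6 arrays (lmFit and eBayes, 3 residual degrees of freedom, two-sided, Benjamini-Hochberg over all genes, threshold 0.05), and was tested on simulated data. The members and lists were chosen with earlier results of these data known.

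Named genes are the 10 regulators, every ATF4 probe set, TSC2, the 2 highest and 2 lowest passing genes of each list and comparison, and the 5 protein-coding genes closest to ATF4. Other falls and rises of the lists, the eIF2 kinases and the markers were named after their values were seen. Their calls were not checked gene by gene in the alternatives. The alternatives comprised median centring, quantile normalization, omission of dim genes, testing every probe set, only the arrays compared, array weights, a gene span trend, a replicate block and leaving out each array.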

Additional observations from a re-analysis of the deposited data

How the results depend on the processing

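The alternatives numbered 14, besides the other ATF4 probe set. For each comparison leaving out an array of the third group is the same fit as using only the 4 arrays compared, which leaves 12 distinct fits. Those that leave out an array of the comparison measure less spread, with 1 array in a group. On the brighter probe set the ATF4 calls passed in all 12, and the CHAC1 calls likewise. Between 2 and 4 of the 10 regulators were called in shTSC2 against control cells and in shTSC2-adapted against shTSC2 cells, and 0 in shTSC2-adapted against control cells. Without the 5 genes chosen for likeness to ATF4, and with ATF4 on its brighter set, 22 of 41 calls of named genes passed in every fit and 19 did not, 11 of these only in fits without 1 array. The pathway genes called ranged from 15 to 35 when 1 array was left out in shTSC2 against control cells and from 10 to 25 in shTSC2-adapted against shTSC2 cells. With array weights 1 was called in shTSC2-adapted against control cells (ATF3, 1.105, adjusted p = 0.0478), where it is 0 otherwise. Array numbers are shared between groups, but the labels do not say that they pair arrays, and the deviations of same-numbered arrays correlated at 0.21 (shTSC2-adapted with shTSC2), -0.19 (shTSC2-adapted with control) and -0.1 (shTSC2 with control). With a replicate block 3, 0 and 2 of the regulators and 33, 0 and 23 pathway genes were called in shTSC2 against control, shTSC2-adapted against control and shTSC2-adapted against shTSC2 cells, and TSC2 in shTSC2-adapted against control cells had an adjusted p of 0.0515. Differences that changed sign had not passed in any setting, and the cause was not tested. Over the fits without 1 array SESN2 ranged from -0.01 to 0.33 in shTSC2 against control cells. In shTSC2-adapted against control cells PPP1R15A ranged from -0.015 to 0.365 and CEBPB from -0.09 to 0.02. In shTSC2-adapted against shTSC2 cells DDIT3 ranged from -0.28 to 0.36, with -0.045 under quantile normalization, and NUPR1 from -0.36 to 0.13. The other ATF4 probe set gave 0.16 in shTSC2-adapted against control cells, against -0.255 on the brighter one. A log2 centring of the arrays moved the median of all genes to 0.085 in shTSC2 against control cells. With 2 arrays a group, small differences are not detectable.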
